A study of Mus musculus with 6 samples.

Results

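A set of 4 connexin genes of stratified epithelium was followed in basal cells of the mouse esophagus: Gja1, Gjb2, Gjb5 and Gjb6. They were chosen by symbol, all 4 had a row, and they stand among 24016 genes of the table and among 20 mouse connexin genes with a row. RNA was profiled in 6 libraries of sorted basal cells. All came from Krt15-CrePR1;R26mTomato/mGFP mice, in which a Krt15 promoter drives a Cre recombinase that RU486 (mifepristone) switches on, and recombination changes the membrane reporter from Tomato to GFP. The mice received 1 mg of RU486 and cells were sorted 24 h later, in both groups. The 3 Krt15-negative libraries hold CD29high GFP- cells (GFP- libraries) and the 3 Krt15-positive libraries hold CD29high GFP+ cells (GFP+ libraries), CD29 being integrin beta-1. The group names follow GFP, so cells that express Krt15 but did not recombine count as Krt15-negative. The age of the mice is not given in the sources used here, and whether each library came from its own mouse is not stated. Libraries of the same replicate number in the 2 groups share a sample code whose meaning is not given. The p-values therefore measure the spread between libraries, which may be technical in part.

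Connexins are membrane proteins that assemble into hemichannels. Hemichannels of neighboring cells dock to form gap junctions, through which ions and small metabolites pass directly from cell to cell. Keratinocytes carry several connexins at once, of the alpha and the beta class, and the mix changes as the cells leave the basal layer. Gja1 encodes Cx43, the most widely expressed connexin, which is also made by fibroblasts and muscle cells. Gjb2 encodes Cx26 and Gjb6 encodes Cx30, which can share channels, and human mutations of either gene cause deafness or skin disease. Gjb5 encodes Cx31.1, a beta connexin found mainly in stratified epithelia.

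The values are FPKM, a fragment count scaled to transcript length and to sequencing depth by the authors, so levels of different genes can be set side by side. Between 3247 and 9194 genes reached 1 FPKM in a library, the lowest number being that of Krt15-negative replicate 1. Depth read from the values was about 28.2 to 42.7 M fragments a library (M, mega). Differences are Krt15-positive minus Krt15-negative on the log2(FPKM + 1) scale. They were tested with limma over the 9423 genes whose mean reached 1 FPKM, with Benjamini-Hochberg adjustment and a threshold of 0.05. No gene of the 9423 passed (0.0% called), and 370 genes (3.93%) had an unadjusted p below 0.05, of which 300 were higher (3.18%) and 70 lower (0.743%) in Krt15-positive cells. The median difference of all tested genes was 0.63, so a member with a difference near that value differed about as much as the typical gene. That median was 0.02 without Krt15-negative replicate 1, 0.48 with upper-quartile scaling, 0.44 with median-of-ratios scaling and 0.04 with quantile normalization.

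The stretches before the start sites of the 4 genes are shown because the genes differ widely in level. They are the 250 bases upstream of the RefSeq start, on the strand of the gene, in build GRCm38.p6, while the authors' notes name mm9, and no measured value is placed on these coordinates. All 4 genes matched the RefSeq table by symbol. Capitals mark matches on either strand to TGANTCA (the AP-1 element, whose reverse complement is the same pattern), GGGCGG (the GC box), TATAAA and CCAAT.
Gja1, chr10:56377050-56377299, plus strand: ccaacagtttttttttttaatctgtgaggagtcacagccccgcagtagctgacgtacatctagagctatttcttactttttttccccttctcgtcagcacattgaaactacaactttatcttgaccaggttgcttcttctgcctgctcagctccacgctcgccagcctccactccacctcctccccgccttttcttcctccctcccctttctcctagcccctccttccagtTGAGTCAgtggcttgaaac
Gjb2, chr14:57104703-57104952, minus strand: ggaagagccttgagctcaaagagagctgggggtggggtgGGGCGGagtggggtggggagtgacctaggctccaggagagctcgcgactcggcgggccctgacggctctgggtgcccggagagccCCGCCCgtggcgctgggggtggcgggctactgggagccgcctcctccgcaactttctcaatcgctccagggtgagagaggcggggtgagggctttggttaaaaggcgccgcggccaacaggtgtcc
Gjb5, chr4:127358165-127358414, minus strand: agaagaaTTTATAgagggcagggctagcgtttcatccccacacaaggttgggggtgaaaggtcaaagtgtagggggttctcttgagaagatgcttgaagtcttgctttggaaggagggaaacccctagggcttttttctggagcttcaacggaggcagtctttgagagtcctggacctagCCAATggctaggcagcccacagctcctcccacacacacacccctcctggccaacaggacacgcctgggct
Gjb6, chr14:57133612-57133861, minus strand: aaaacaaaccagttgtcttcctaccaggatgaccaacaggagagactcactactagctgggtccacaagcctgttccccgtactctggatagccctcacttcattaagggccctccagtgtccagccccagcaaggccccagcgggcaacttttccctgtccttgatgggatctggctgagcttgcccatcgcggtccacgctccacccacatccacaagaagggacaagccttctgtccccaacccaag

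Gja1 had 1 AP-1 match, beginning 19 bases before the start, and 6.73% of 32536 promoters of this length had one. Gjb2 had 2 GC box matches, a motif found in 33% of these promoters, and 18 CpG dinucleotides in a stretch of 69.2% G and C. Gjb5 had 1 CCAAT match 70 bases before the start (33.8% of promoters) and 1 TATAAA match, on the reverse strand, 243 bases before it (12.3% of promoters). Gjb5 held 3 CpG, Gjb6 held 5 and Gja1 held 6, the median of all promoters being 6. None of the 4 patterns occurred in the Gjb6 stretch. These are matches of letters and say nothing about binding.

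Gja1 was the most abundant connexin in all 6 libraries. Its levels in GFP- replicates 1 to 3 were 62.8, 201 and 110 FPKM, against 56.5, 372 and 240 FPKM in GFP+ replicates 1 to 3. The lowest and the highest library were both Krt15-positive, and the groups overlapped. By level Gja1 ranked between 372nd and 1402nd of the 24016 genes of a library. The group means were 125 ± 70.3 and 223 ± 159 FPKM (SD, n = 3). The difference was 0.62 (SE 0.83, 95% CI -1.21 to 2.44, limma adjusted p = 0.85). It equalled the median of all genes to within 0.01 in this fit, but not in others: with quantile normalization Gja1 was at 0.76, with upper-quartile scaling at 0.16, with median-of-ratios scaling at 0.14 and without Krt15-negative replicate 1 at 0.21, beside the medians given above. It was 1.41 without Krt15-positive replicate 1 and 0.06 without Krt15-positive replicate 2, and it did not pass in either case (adjusted p between 0.64 and 1.00 over the settings tried).

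Because Gja1 is also a gene of fibroblasts and smooth muscle, markers of these cells were read in the same libraries. The 9 fibroblast markers summed to 176 to 788 FPKM in Krt15-negative and 71.3 to 179 FPKM in Krt15-positive libraries, and of the 8 that were tested 7 were below 0. All 7, Col1a1 among them, reached a mean of 1 FPKM only through the Krt15-negative libraries, so their direction was set by the filter. Over all tested genes 31.4% were below 0. The collagen gene Col1a1 stood at 1.05 to 8.89 FPKM in Krt15-negative libraries and at most at 0.0069 FPKM in Krt15-positive ones. The 5 smooth muscle markers summed to at most 9.94 FPKM, with Myh11 and Cnn1 listed at 0 in all libraries, and the 5 endothelial markers to at most 4.05 FPKM, with Cdh5 and Emcn listed at 0. Not all fibroblast markers were low in the Krt15-positive libraries. Dcn, the gene of the matrix proteoglycan decorin, stood at 13.9, 267 and 457 FPKM in GFP- replicates 1 to 3 and at 167, 176 and 71.1 FPKM in GFP+ replicates 1 to 3, where it made up nearly all of the fibroblast sum, and its groups overlapped (difference 0.07, SE 1.14, limma adjusted p = 0.99). The part of other cells in the Gja1 values of either group was not tested. Fewer cells of a type and less RNA per cell cannot be told apart in these libraries.

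Keratins of the labelled cell type were abundant in both groups. Krt5 and Krt14, the keratins of basal cells, stood at 369 to 1293 and 949 to 3199 FPKM. Krt15 itself stood at 2350, 6784 and 3412 FPKM in GFP- replicates 1 to 3 and at 3350, 9692 and 2420 FPKM in GFP+ replicates 1 to 3. These overlap (difference 0.18, SE 0.48, limma adjusted p = 0.93), so the libraries labelled Krt15-negative and Krt15-positive were not separated by Krt15 RNA. Other basal markers were less even. In Krt15-negative replicate 1 Trp63 stood at 0.46, Itgb1 (the gene of CD29) at 1.03 and Itga6 at 1.46 FPKM. The highest library reached 87.2, 43.3 and 18.3 FPKM. Col17a1 was also lowest in that replicate, at 15.8 FPKM, while Itgb4 was highest there, at 17.2 FPKM. Krt13, a keratin of suprabasal esophageal cells, was abundant too, at 847 to 3771 FPKM. The 8 suprabasal markers summed to 9230 to 37844 FPKM in Krt15-negative and 8923 to 53038 FPKM in Krt15-positive libraries, and their part in the connexin values was not tested. Krtdap alone made up most of each sum except that of Krt15-negative replicate 3, the lowest of its group, where Krtdap was listed at 0.

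**Figure D1:**
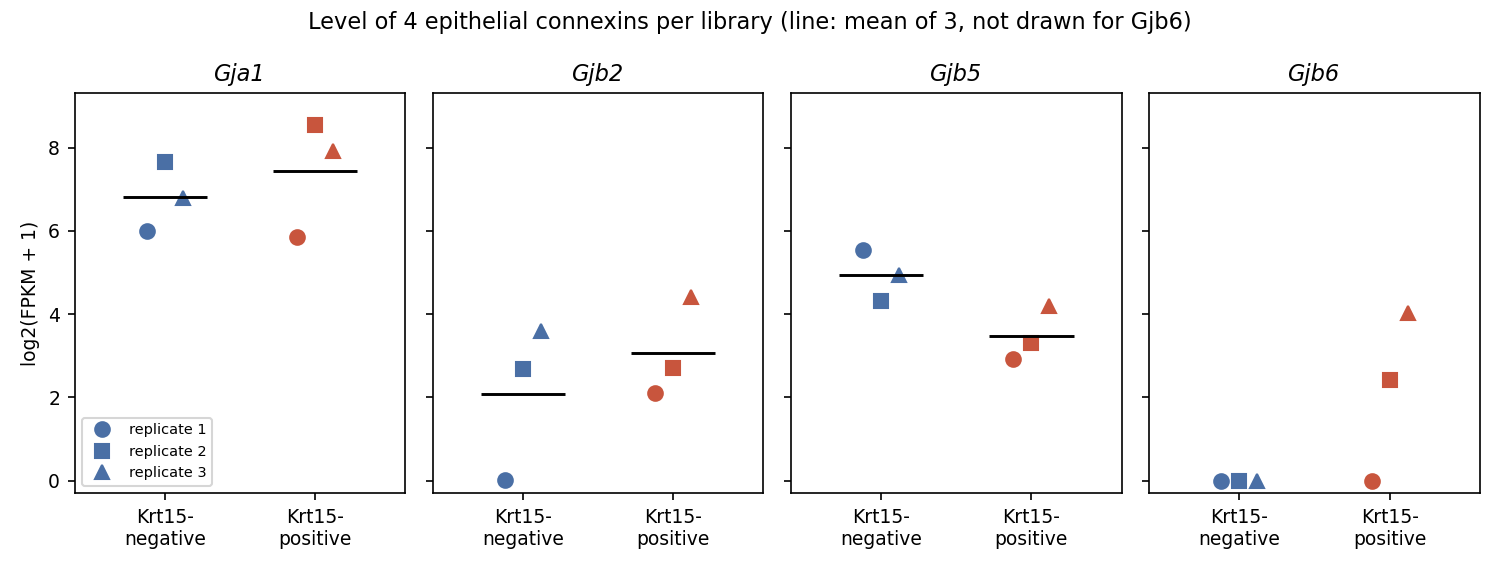
Level of Gja1, Gjb2, Gjb5 and Gjb6 on the log2(FPKM + 1) scale in the 3 Krt15-negative (blue) and 3 Krt15-positive (red) libraries, with the mean as a line except for Gjb6, which is listed at 0 in 4 libraries. Gja1 lies highest throughout, and Gjb5 is the only one of the 4 whose groups do not overlap.

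Gjb5 was by its mean the second most abundant of the 4, and the only one whose difference was below 0. Its levels were 45.7, 19.0 and 29.6 FPKM in GFP- replicates 1 to 3 and 6.65, 8.96 and 17.3 FPKM in GFP+ replicates 1 to 3. All Krt15-negative values lay above all Krt15-positive ones, a pattern seen in the lower direction for 2.44% of tested genes. The means were 31.5 ± 13.5 and 11 ± 5.61 FPKM (SD, n = 3), a ratio of 2.87. The difference was -1.45 (SE 1.02, 95% CI -3.69 to 0.78, limma adjusted p = 0.79), -2.08 relative to the median of all genes, and 345 of 9423 genes had a lower one. It did not pass the test. An exact permutation test, 2-sided, gave p = 0.10, its floor with 3 libraries per group. The difference stayed below 0 in all 16 other fits, from -1.91 to -0.87, and the groups overlapped once upper-quartile, median-of-ratios or quantile scaling was applied. In the Krt15-negative library with fewest genes, replicate 1, Gjb5 was at its highest. Without that library the difference was -1.15 and the median of all genes 0.02, so Gjb5 then lay nearer to the median. Most tested fibroblast and immune markers were also lower in Krt15-positive libraries. Markers of other cells did not all go this way. Acta2, the 1 smooth muscle marker tested, had a difference of 1.29 (SE 1.29), and the fibroblast marker Dcn 0.07. No endothelial marker was tested. The fibroblast sums are given above, with 6 of the 8 tested markers lower without overlap, against 2.44% of tested genes. All 6 reached a mean of 1 FPKM only through the Krt15-negative libraries, so their direction was set by the filter. The 6 immune markers summed to 142 to 493 FPKM in GFP- and 0.665 to 36.5 FPKM in GFP+ libraries. All 4 tested were below 0 (31.4% of tested genes), 1 of them without overlap. Of the 4, Laptm5 and Cd52 also passed the filter only through the Krt15-negative libraries. The part of the cells behind these fibroblast and immune markers in the Gjb5 difference was not tested.

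Gjb2 varied more between libraries than between groups. GFP- replicates 1 to 3 gave 0.015, 5.39 and 11 FPKM, and GFP+ replicates 1 to 3 gave 3.28, 5.56 and 20.3 FPKM. The highest value was in a Krt15-positive library and the lowest in Krt15-negative replicate 1, and the other 4 libraries interleaved. The difference was 0.98 (SE 1.3, 95% CI -1.85 to 3.82, limma adjusted p = 0.84). Without Krt15-negative replicate 1 it turned to -0.05, with quantile normalization to -0.12 and with library weights to -0.34, so its direction depends on the setting. Between libraries of the same number, a pairing that is not established, it was higher in Krt15-positive in 3 of 3, by little in number 2. By the same count Gja1 was higher in 2 of 3 and Gjb5 in 0 of 3.

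Gjb6 was read in 2 of the 6 libraries. It was listed at 0 in all 3 Krt15-negative libraries and in Krt15-positive replicate 1, and stood at 4.36 and 15.3 FPKM in Krt15-positive replicates 2 and 3, about 311 and 950 fragments. An exact 0 in a Cufflinks table can be a failed estimate, and Tbp, a gene that every cell uses, was also listed at 0 in Krt15-negative replicates 1 and 2. Gjb6 passed the filter on low values through the Krt15-positive libraries alone, so its difference could not lie below 0 and is given as a description. The fitted value was 2.15 (SE 1.09, 95% CI -0.23 to 4.53), and it was not called. Its size rests on the pseudocount, being 4.25 with 0.1 and 0.98 with 5, and it was 1.21 without Krt15-positive replicate 3 and 3.22 without Krt15-positive replicate 1. Where Gjb6 was read, it was lower than Gjb2, its neighbor on chromosome 14, in the same library.

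Ordered by level, Gja1 exceeded Gjb5 in 6 of 6 libraries, Gjb5 exceeded Gjb2 in 5 of 6, and Gjb2 exceeded Gjb6 in both libraries where Gjb6 was read. Gjb5 and Gjb2 changed places in Krt15-positive replicate 3, where Gjb2 stood at 20.3 and Gjb5 at 17.3 FPKM. Whether these neighbors in the order differ was not tested. The ratio of Gja1 to Gjb5 ran from 1.37 in Krt15-negative replicate 1 to 41.6 in Krt15-positive replicate 2. GFP- replicates 1 to 3 gave 1.37, 10.6 and 3.71, and GFP+ replicates gave 8.51, 41.6 and 13.8. The groups overlap, and the ratio was higher in the Krt15-positive library in 3 of 3 same-numbered comparisons, a pairing that is not established.

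Most of the other connexins were not read. Of the 20, 7 were tested and 12 were listed at 0 in all 6 libraries, among them Gja5 and Gja4, connexins of blood vessels, and Gjc3, a connexin of glia. Gjd3 reached at most 0.44 FPKM. Gjb1 (Cx32), the connexin of liver, was read in 1 library, Krt15-negative replicate 3, at 6.78 FPKM. In all, 4 of the 7 tested connexins were above 0 and 3 below, 0 were called, and their median difference was 0.40 against 0.63 over all genes, where 68.6% were above 0. Without Krt15-negative replicate 1, 2 of the 7 were above 0.

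The make-up of the connexin signal within a library does not depend on scaling between libraries. Gja1 made up 57.9, 70.7 and 57.1% of the summed connexin FPKM in GFP- replicates 1 to 3, against 78.5, 87.4 and 81.2% in GFP+ replicates 1 to 3. Each Krt15-positive library lay above each Krt15-negative one. The means were 61.9 ± 7.66% and 82.4 ± 4.59% (SD, n = 3), a difference of 20.5 percentage points that lay between 17.9 and 24.9 with any 1 library left out. Correspondingly, the 6 beta connexins took 42.1, 29.3 and 42.9% in Krt15-negative and 21.5, 12.5 and 18.8% in Krt15-positive libraries. Gjb5 alone took 42.1, 6.68 and 15.4% against 9.22, 2.1 and 5.86%, where the groups overlap. With the 4 members alone as the denominator, the Gja1 share was 57.9, 89.2 and 73.0% in GFP- and 85.1, 95.2 and 81.9% in GFP+ replicates 1 to 3. The groups then overlapped, and the difference of their means was 14 percentage points. These shares are descriptions and carry no test. The summed connexin FPKM itself overlapped, at 109, 284 and 193 in Krt15-negative and 72.1, 426 and 295 in Krt15-positive libraries.

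**Figure D2:**
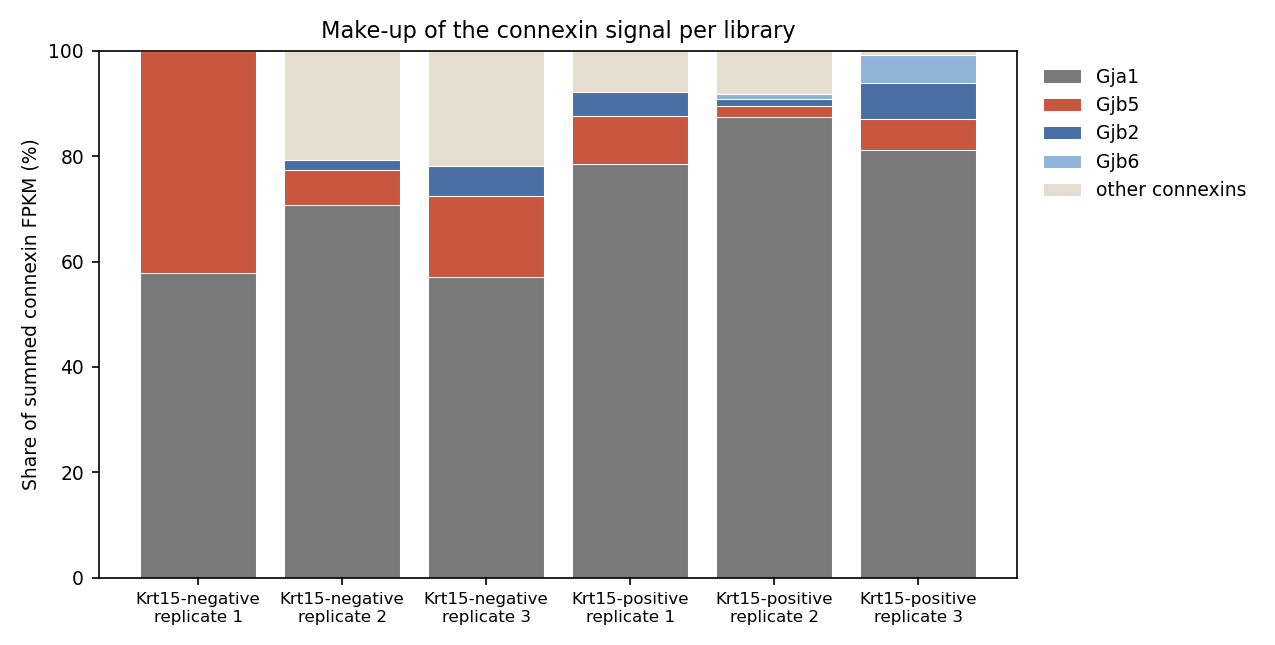
Share of each connexin in the summed connexin FPKM of a library, in percent, for the 3 Krt15-negative (left) and 3 Krt15-positive (right) libraries. Connexins beyond the 4 are drawn as 1 part. The grey part, Gja1, takes 57.1 to 70.7% on the left and 78.5 to 87.4% on the right.

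**Figure D3:**
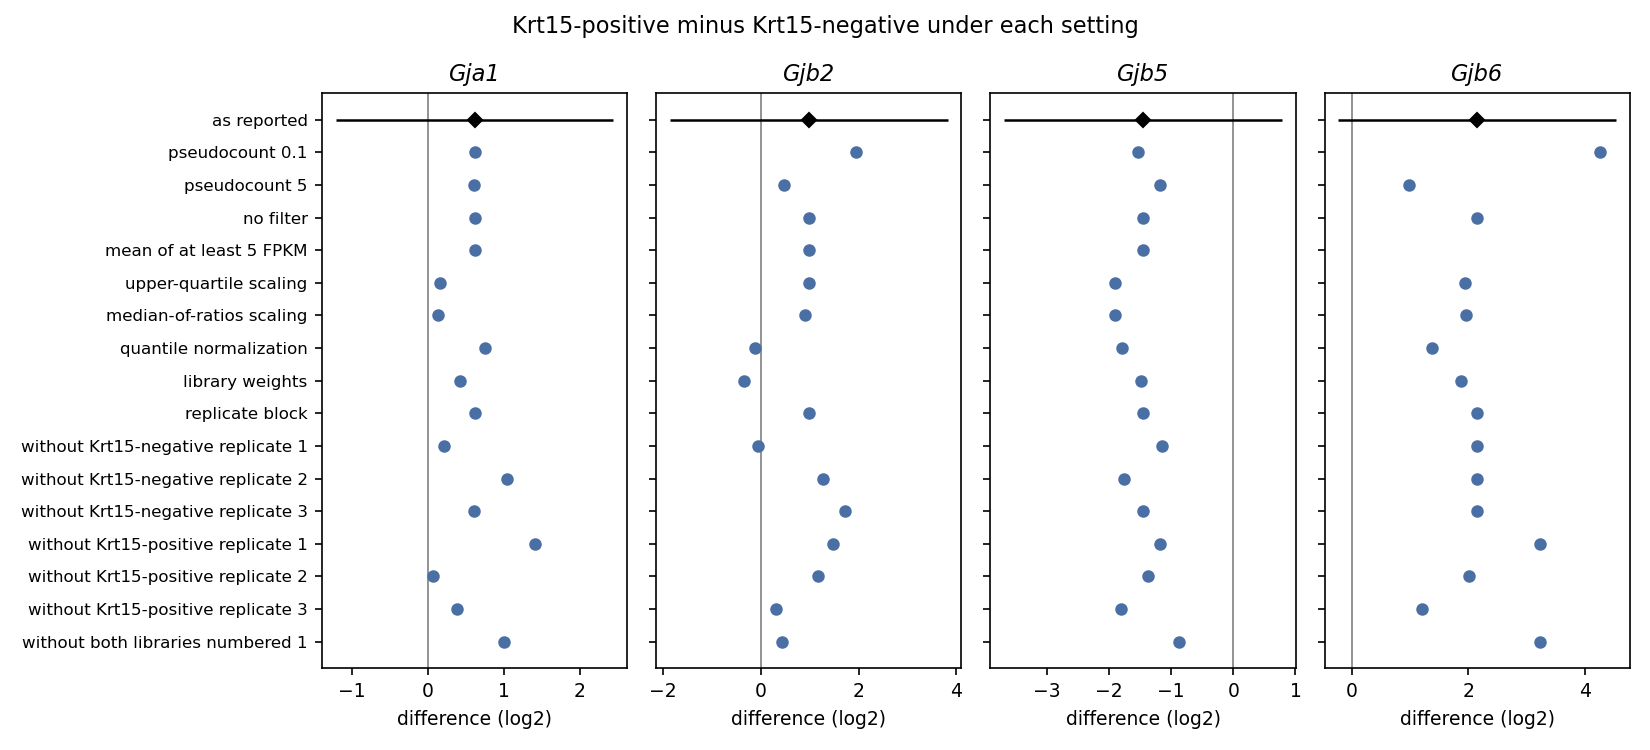
Difference of each of the 4 connexins, Krt15-positive minus Krt15-negative in log2 units, as reported (black diamond with its 95% CI) and under each other setting (blue points); Gjb6 has no value where a mean of 5 FPKM was required. Gja1 stays above 0 and Gjb5 below 0 in every fit shown, Gjb2 crosses 0 in 3, and Gjb6, listed at 0 in all Krt15-negative libraries, cannot fall below 0.

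Genes that hold connexins at the membrane, carry and remove them, or phosphorylate them were read from 3 lists with 31 genes, of which 25 were tested. Of these, 22 were above 0 and 3 below, 0 were called, and the median difference was 0.95 against 0.63 over all genes. Without Krt15-negative replicate 1 the number above 0 was 13. Complete separation with higher values in Krt15-positive cells was seen for 6 of the 25, against 8.85% of all tested genes, and lower values without overlap for 0 (2.44% of tested genes). Several of the 6, such as Tjp1, Smurf2 and Ubqln4, reached a mean of 1 FPKM only through the Krt15-positive libraries. The direction of these was set by the filter.

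Among scaffold and junction partners 7 of 8 tested genes were above 0, with a median of 0.96. Tjp1, which encodes ZO-1, the scaffold that binds the tail of Cx43, stood at 0, 0.55 and 1.10 FPKM in Krt15-negative and at 1.39, 1.53 and 3.00 FPKM in Krt15-positive libraries. Its groups did not overlap, at low levels, and its difference of 0.96 (SE 0.86, limma adjusted p = 0.79) did not pass. Tjp1 reached a mean of 1 FPKM only through the Krt15-positive libraries, so its direction is a description. Cdh1, E-cadherin, stood at 47.5, 2.16 and 3.14 FPKM against 22.3, 29.7 and 39.2 FPKM, and its difference of 1.83 was 3.08 without Krt15-negative replicate 1. Cav1, caveolin of lipid rafts, stood at 0.014, 18.5 and 9.70 FPKM against 10.8, 35.6 and 14.3 FPKM, which overlap.

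Among the genes of trafficking and turnover 8 of 9 tested were above 0, with a median of 0.48. Smurf2, a ubiquitin ligase, stood at 0.019, 0.044 and 0.34 FPKM in Krt15-negative and at 2.86, 1.53 and 9.88 FPKM in Krt15-positive libraries. Its difference was 2.07 (SE 0.95, limma adjusted p = 0.79), and it ran from 0.32 to 4.21 over the other fits. Ubqln4, which escorts connexins to the proteasome, stood at 0, 1.03 and 0.80 FPKM against 4.74, 9.20 and 3.05 FPKM (difference 2.01, SE 1.00). Both were separated by group and did not pass. Both reached a mean of 1 FPKM only through the Krt15-positive libraries, so their direction was set by the filter and is a description. Nedd4, the ubiquitin ligase that binds Cx43, stood at 40.4, 15.2 and 14.5 FPKM against 29.2, 43.4 and 27.8 FPKM, with overlap. Cnst, consortin, a receptor that sorts connexins at the trans-Golgi, stood at 0, 7.66 and 1.0 FPKM against 0, 4.75 and 0 FPKM.

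Among the kinases 7 of 8 tested were above 0, with a median of 1.21. Mapk3, which encodes ERK1, stood at 0, 0.85 and 10.2 FPKM in Krt15-negative and at 14.3, 16.2 and 14.7 FPKM in Krt15-positive libraries (difference 2.55, SE 1.22, limma adjusted p = 0.79). Its groups did not overlap, and without Krt15-negative replicate 1, where it was listed at 0, the difference was 1.82. Akt1 stood at 0.079, 14.5 and 9.13 FPKM against 12.3, 75.9 and 22.3 FPKM, which overlap.

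Panx1, a pannexin that forms large single-membrane channels akin to hemichannels, was the only pannexin read. It stood at 0, 30.3 and 2.15 FPKM in Krt15-negative and at 4.05, 11.3 and 12.7 FPKM in Krt15-positive libraries. Its difference of 1.04 (SE 1.39, limma adjusted p = 0.85) turned to -0.07 without Krt15-negative replicate 1. Panx2 and Panx3 were listed at 0 in all 6 libraries.

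**Figure D4:**
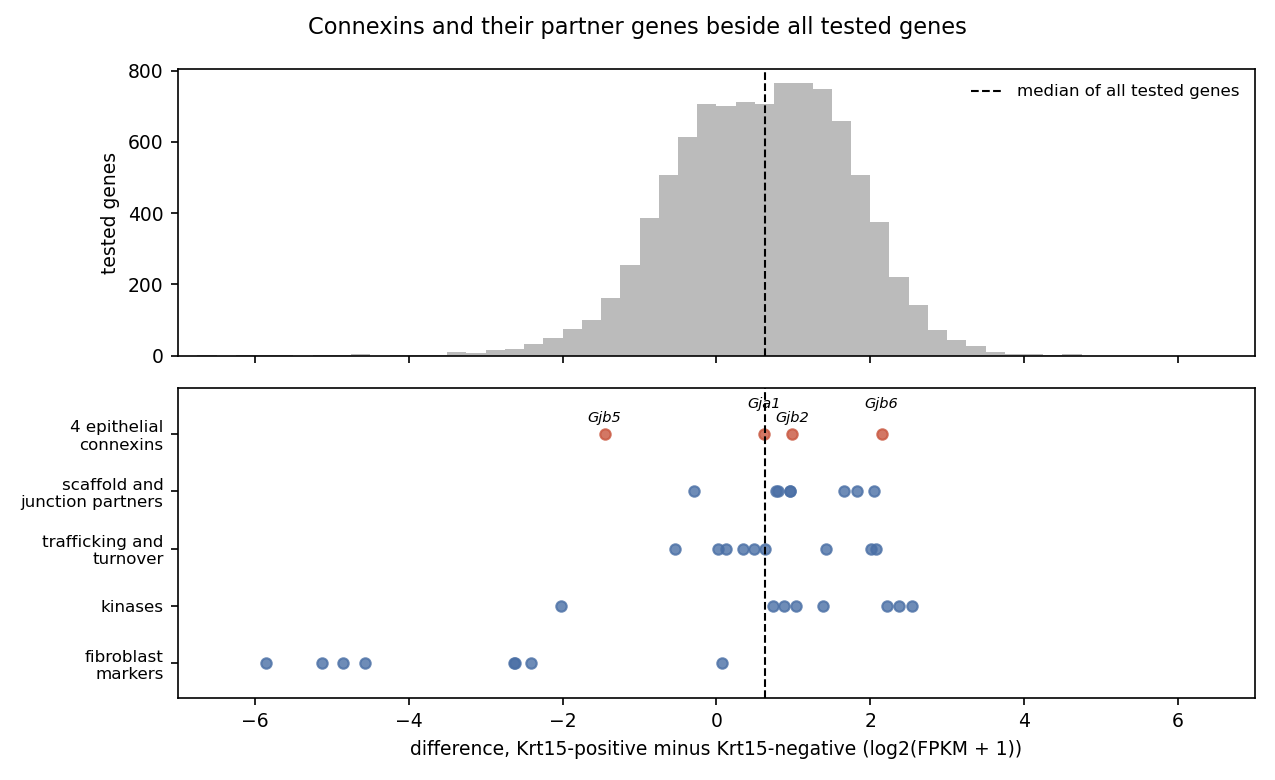
Top, number of tested genes by difference in log2(FPKM + 1), Krt15-positive minus Krt15-negative, with the median of 0.63 dashed. Bottom, the 4 epithelial connexins (red, named), their partner genes by list and the fibroblast markers (blue), 1 point per gene; the 4 connexins spread from -1.45 to 2.15 and most partner genes lie right of 0.

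The genes most like each member were found by the Pearson correlation of log2(FPKM + 1) over the 6 libraries, which share their preparation and depth with the member, and the values are a description. For Gja1 they were Tpm4, a tropomyosin gene (r = 0.99), Nt5m, a mitochondrial nucleotidase gene (r = 0.99), and Krt2, a keratin gene (r = 0.98). Tpm4 stood at 42.6, 83.4 and 58 FPKM in Krt15-negative and at 41.7, 147 and 102 FPKM in Krt15-positive libraries, the same order of libraries as Gja1. For Gjb2 they were Smim14 (r = 1.00), Rdh12, a retinol dehydrogenase gene (r = 0.98), and Rab27b, a gene of vesicle transport (r = 0.98). Rdh12 stood at 0.62, 62 and 206 FPKM against 34.9, 105 and 357 FPKM. For Gjb5 they were Supt4a, a transcription elongation gene, Cuta and Fam25c (r = 0.97, 0.97 and 0.96). Fam25c stood at 3513, 931 and 1704 FPKM against 212, 637 and 1047 FPKM. For Gjb6, read in 2 libraries, they were Snora31, Abcb9 and Zfp407 (r = 1.00 for each), which were likewise at or near 0 in the same 4 libraries. With 6 points such values are common: 119, 272, 46 and 176 genes reached r = 0.9 with Gja1, Gjb2, Gjb5 and Gjb6.

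Connexin genes resemble each other, which matters where reads can be shared between copies. The longest run of identical bases between transcripts of any 2 of the 4 genes was 20 bases, between Gjb2 and Gjb6, and the longest between a member and any connexin was 36 bases, between Gja1 and Gje1, in the GENCODE transcripts.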

How the data were processed

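RNA was measured in 6 libraries, 3 per group, and the sorted cells went straight into cDNA synthesis with a SMART-Seq v4 low-input kit, per the labels' protocols, a chemistry that does not mark strand. The deposited values are on the FPKM scale, computed by the authors, although the table is titled counts. The submitters' processing notes name mm9, Cufflinks 2.2.1, STAR 2.5 and DESeq2 without their roles. Annotation, read filters and strandedness were not given in the sources used here. Of 24043 rows, 27 whose symbol a spreadsheet had turned into a date were left out, and all 6 value columns matched a label.

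Log2(FPKM + 1) values of the 9423 genes whose mean reached 1 FPKM were fitted in R 4.3.3 by limma 3.58.1, using its trend option, on all 6 libraries with group as the sole term. P-values were Benjamini-Hochberg adjusted over all tested genes. The fit was also run on simulated normal values, with changes larger than the differences of the members in the main fit. That run says nothing about finding differences of the members' size. Depth was read from the value that a single fragment gives in genes with 1 transcript of at least 1500 bp, so it is approximate and no counting interval is given. Alternatives were pseudocounts of 0.1 and 5, no filter or a mean of at least 5 FPKM, 3 scalings, library weights, a replicate block, and leaving out each library; leaving out both libraries numbered 1 was added after seeing the data. Named genes are the 4 members, the tested connexins and pannexins, the 2 partner genes of smallest p per list with Tjp1, Cav1, Cnst and Nedd4, and the 3 genes most correlated with each member. The members, lists and rules were chosen with earlier results of these data known. Of 111 listed symbols, 1 was matched through a RefSeq synonym (Ccn3, listed as Nov). Some genes that this rule or the lists take in are not reported here.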

Additional observations from a re-analysis of the deposited data

How the results depend on the processing

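No member was called under any setting, and 0 genes of the whole table were called in all fits other than that with library weights, which called 8. Gja1 kept a difference above 0 and Gjb5 below 0 in every fit, and that of Gjb6 could take no other sign, while that of Gjb2 turned to -0.12 with quantile normalization and to -0.34 with library weights. Without Krt15-negative replicate 1 the Gjb2 difference was -0.054. Leaving out 1 library at a time gave 0.06 to 1.41 for Gja1, -0.05 to 1.73 for Gjb2, -1.81 to -1.15 for Gjb5 and 1.21 to 3.22 for Gjb6, 2 to 4 tested connexins above 0, 13 to 23 partner genes above 0 and 0 genes called. The lowest values for Gjb2 and both counts came without Krt15-negative replicate 1, and the cause was not tested. With a mean of at least 5 FPKM required, Gjb6 was not tested. Libraries of the 2 groups share replicate numbers, but the correlation of same-numbered libraries' deviations from their group means was 0.13, 0.17 and 0.0089, and 2 of the 3 numbers correlated best with their own. These values do not establish a pairing, and the sample code that same-numbered libraries share is not explained, so a common source was neither assumed nor dismissed. The fit with a replicate block gave the same differences (0.62, 0.98, -1.45 and 2.15 for Gja1, Gjb2, Gjb5 and Gjb6), 0 calls, and 4 connexins and 22 partner genes above 0.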
